A study of Mus musculus with 2 samples.

Results

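The genes described here encode 10 enzymes and helper proteins that turn arachidonic acid into prostaglandins, thromboxane and leukotrienes. They were chosen by gene symbol, 10 of 23444 symbols in the files, as a set with a shared pathway and not by a threshold on their values, although earlier results of these data were known. They fall into cyclooxygenases (Ptgs1, Ptgs2), prostanoid synthases (Ptges, Ptges2, Tbxas1, Hpgds) and the lipoxygenase and leukotriene branch (Alox5, Alox5ap, Alox15, Ltc4s). RNA-seq was made from cultured macrophages that had been derived from the bone marrow of FVB mice. There were 2 libraries, 1 labelled WT (RON proficient) and 1 labelled RON TK-/- (RON deficient, with the tyrosine kinase of the receptor RON lost). Both had received recombinant interleukin-4 (10 ng/mL, 72 hours), a cytokine that drives alternative activation of macrophages, per the labels. The design asks how RNA levels differ between such macrophages with and without the RON kinase. The labels give neither the age of the mice nor whether cells of several animals were pooled.

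Each group is a single library, so differences have no replicate check, tests were not possible, and each value below compares these libraries and not the genotypes. RNA levels are given as FPKM, which counts sequenced fragments relative to transcript length and library depth, so that genes of different length can be compared. The deposited coverage implied a depth of about 59800000 and 67100000 reads in the libraries labelled WT and RON TK-/-. The targeted gene Mst1r was listed at 0 in both and checked neither label. The response genes of interleukin-4 went against the label of the WT-labelled library: Arg1 had 1.0 FPKM there and 5041 in the RON TK-/- labelled library, Chil3 and Retnla were listed at 0 and had 4604 and 3665, and Mrc1 had 71.2 and 1016. Inflammatory genes had the opposite order, with Nos2 at 1100 FPKM in the WT-labelled library and 3.63 in the other, Tnf at 1262 and 0.52, Il1b at 823 and 0.20 and Il6 at 611 and 0.92. The libraries are called by their labels throughout, and genotype, library and activation state cannot be told apart.

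Cyclooxygenases convert arachidonic acid, freed from membranes by phospholipases, to prostaglandin H2, from which terminal synthases make prostaglandin E2, prostaglandin D2 or thromboxane. The lipoxygenase Alox5 with its helper Alox5ap makes leukotriene A4, which becomes leukotriene B4 or, through Ltc4s, leukotriene C4. In macrophages Ptgs1 is known as the steadily expressed cyclooxygenase, while Ptgs2 and Ptges are known for strong induction by endotoxin and inflammatory cytokines, and Alox15 for induction by interleukin-4 and interleukin-13.

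The sequences around or before the start sites of 4 enzymes are shown first, since Ptgs1 and Ptgs2 catalyse the same reaction yet differed by more than 2-fold in opposite directions, and Ptges and Tbxas1 use the same substrate and did so too. They come from a set of windows around RefSeq starts (GRCm38.p6, the assembly of the mm10 build). In that set 8 of the 10 genes matched an entry, and Alox5ap and Alox15 did not, so these were not searched. Capitals mark matches, on either strand, to any of the motifs searched: the TATA box TATAAA, the NF-kB motif (GGGA and CC with any 4 bases between them), the STAT6 motif (TTC and GAA with any 4 bases between them) and the core of the cyclic AMP element, CGTCA. Each is written 5′ to 3′ on the gene's own strand. The Ptgs2 window (plus strand, chr1:150099781-150100080) lies wholly before the transcript start in the deposited files, and the Ptgs1 (plus strand, chr2:36230176-36230425), Ptges (minus strand, chr2:30903298-30903547) and Tbxas1 (plus strand, chr6:38918736-38918985) windows end at the base before it.
Ptgs1: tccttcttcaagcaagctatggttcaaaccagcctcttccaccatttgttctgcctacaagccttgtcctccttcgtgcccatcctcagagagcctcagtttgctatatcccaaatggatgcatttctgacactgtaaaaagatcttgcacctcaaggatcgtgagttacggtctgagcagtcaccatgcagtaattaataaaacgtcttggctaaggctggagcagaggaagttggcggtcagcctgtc
Ptgs2: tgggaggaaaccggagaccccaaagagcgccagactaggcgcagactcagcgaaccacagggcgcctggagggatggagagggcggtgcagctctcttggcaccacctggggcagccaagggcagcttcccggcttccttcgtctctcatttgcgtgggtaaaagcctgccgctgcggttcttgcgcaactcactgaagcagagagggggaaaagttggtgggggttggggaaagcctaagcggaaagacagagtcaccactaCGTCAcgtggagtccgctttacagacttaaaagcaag
Ptges: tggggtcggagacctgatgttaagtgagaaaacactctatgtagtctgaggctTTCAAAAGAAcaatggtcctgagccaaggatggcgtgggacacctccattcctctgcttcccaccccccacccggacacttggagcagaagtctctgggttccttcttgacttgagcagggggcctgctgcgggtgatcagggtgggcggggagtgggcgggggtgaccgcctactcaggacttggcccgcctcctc
Tbxas1: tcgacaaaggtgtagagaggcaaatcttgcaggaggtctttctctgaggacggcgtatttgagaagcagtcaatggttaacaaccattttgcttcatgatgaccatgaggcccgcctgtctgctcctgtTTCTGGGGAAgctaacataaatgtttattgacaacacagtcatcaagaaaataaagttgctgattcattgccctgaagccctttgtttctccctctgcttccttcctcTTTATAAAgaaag

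Over the full windows of 300 bases, Ptgs2 held 1 cyclic AMP core, which begins 13 bases after the RefSeq start that sets the window and 80 bases before the later transcript start of the files. The core was present in 20.8% of 32851 RefSeq windows of that length. Ptges held 1 STAT6 motif, 197 bases before its start, and so did Tbxas1, 121 bases before its start, although these genes differed in opposite directions. GENCODE vM21 begins the gene Ptges 26566 bases and the gene Tbxas1 43582 bases further upstream, so other start sites of these genes are not covered by the windows. That motif was present in 6.95% of windows. Tbxas1 alone of the 8 held the exact letters TATAAA, on both strands in overlapping letters 13 and 11 bases before the start (13.6% of windows). Variants of the TATA box with other letters were not searched, so the other windows may hold them. The NF-kB letters were found in the Alox5 window alone, against 20.7% of all windows. None of the 4 motifs lay in the windows of Ptgs1, Ptges2, Hpgds or Ltc4s. Bases more than 250 before the RefSeq start were not searched for any gene, so an absent match, also for Ptgs2, covers the window only. The Ptgs2 window had 16 CpG dinucleotides and the Ptgs1 window 6, where the median window had 7. A match is a description of the letters, not evidence that a factor was bound.

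The largest difference among the 10 was that of Ptgs2, and the 2 cyclooxygenases differed in opposite directions. Ptgs2 (chromosome 1, 150100124 to 150108012 of mm10), the inducible cyclooxygenase, had 1079 FPKM in the WT-labelled library and 7.51 in the RON TK-/- labelled library. It ranked 43rd among 11288 detected genes in the first and 6665th in the second. The level was 144 times higher in the WT-labelled library, a log2 ratio of -6.99 on the scale of FPKM + 1, with the RON TK-/- labelled library in the numerator as for every ratio below. Only 28 detected genes, Ptgs2 included, had a ratio that low.

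Ptgs1 (chromosome 2, 36230426 to 36252269), known as the steadily expressed cyclooxygenase, also differed by more than 2-fold here, in the opposite order. It had 13.6 FPKM in the WT-labelled library and 51.5 in the RON TK-/- labelled library, a log2 ratio of 1.84. A ratio that high was more common, shared by 557 detected genes, Ptgs1 included. Within the WT-labelled library Ptgs2 RNA was 79.1 times as abundant as Ptgs1 RNA, while within the RON TK-/- labelled library Ptgs1 was 6.86 times as abundant as Ptgs2. Ptgs2 thus made up 98.8% of cyclooxygenase FPKM in the first and 12.7% in the second. These shares are taken within a library and do not depend on how the libraries are scaled to each other. The summed FPKM of both genes was 1093 and 59.1, or 18.5 times higher in the WT-labelled library.

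**Figure D1:**
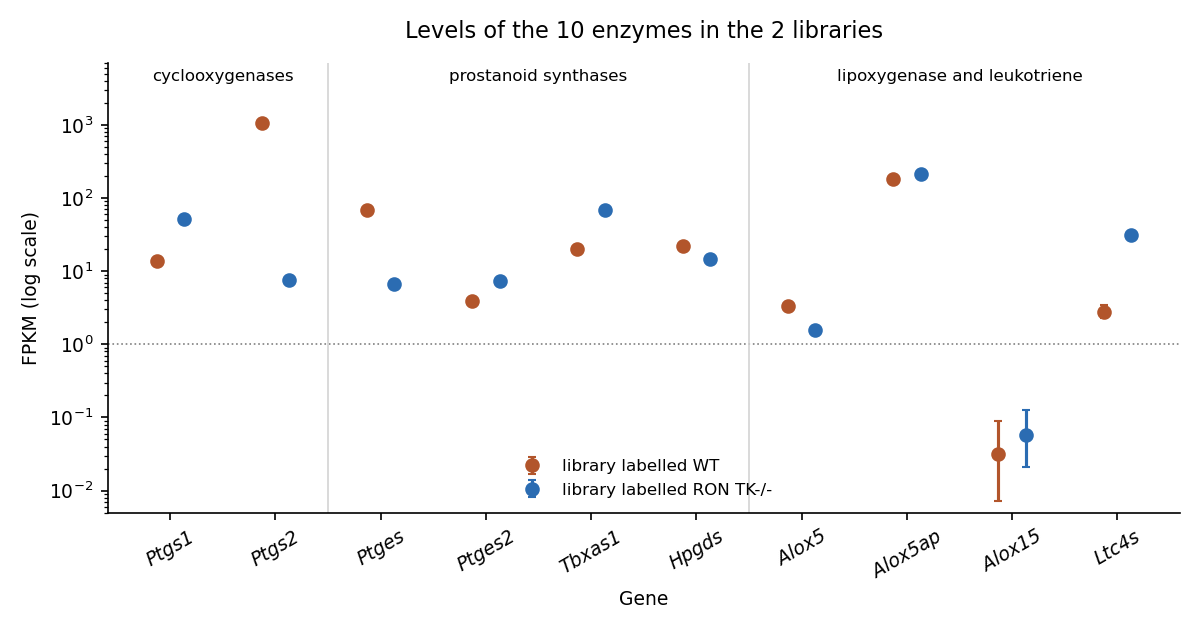
FPKM (log scale) of each of the 10 enzymes in the WT-labelled library and in the RON TK-/- labelled library, 1 point per library, with bars for the 95% exact Poisson interval of the estimated reads (counting error only; mostly smaller than the point) and a dotted line at 1 FPKM. Ptgs2 and Ptges lie far higher in the WT-labelled library, Ptgs1, Tbxas1 and Ltc4s higher in the other, and Alox15 below 0.1 FPKM in both.

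The prostanoid synthases act on the product of the cyclooxygenases and split in the same way. Ptges (chromosome 2, 30889471 to 30903297), the inducible microsomal prostaglandin E synthase, had 67.9 FPKM in the WT-labelled library and 6.75 in the RON TK-/- labelled library, a log2 ratio of -3.15. Tbxas1 (chromosome 6, 38918986 to 39084579), the thromboxane A synthase, had 19.9 and 69.4 FPKM, a log2 ratio of 1.76. Ratios as low as that of Ptges were found for 211 detected genes, and as high as that of Tbxas1 for 652, each included. Within the WT-labelled library Ptges was 3.42 times as abundant as Tbxas1, and within the RON TK-/- labelled library Tbxas1 was 10.3 times as abundant as Ptges. The ratio of Tbxas1 to Ptgs1 was close in the 2 libraries, at 1.46 and 1.35.

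Ptges2 and Hpgds differed less. Ptges2 (chromosome 2, 32395890 to 32402740), the membrane-associated prostaglandin E synthase, had 3.89 FPKM in the WT-labelled library and 7.44 in the RON TK-/- labelled library, a log2 ratio of 0.79. Hpgds (chromosome 6, 65117293 to 65144730), the haematopoietic prostaglandin D synthase, had 21.8 and 14.5, a log2 ratio of -0.56. The cytosolic prostaglandin E synthase Ptges3, not among the 10, was nearly level at 76.5 and 68.7 FPKM. Of the 3 prostaglandin E synthases, Ptges made up 45.8% of FPKM in the WT-labelled library and 8.14% in the RON TK-/- labelled library, and Ptges3 51.6% and 82.9%. As deposited, the summed FPKM of the 4 synthases chosen was close between the libraries, 113 and 98.1. On that scale the branch differed in make-up more than in total. Unlike the shares, the sum depends on how the libraries are scaled to each other. Median rescaling multiplies FPKM of the RON TK-/- labelled library by 0.632, which lowers its sum further below that of the WT-labelled library. Tbxas1 made up 17.5% of that sum in the WT-labelled library and 70.8% in the RON TK-/- labelled library, and Ptges 59.9% and 6.88%.

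**Figure D2:**
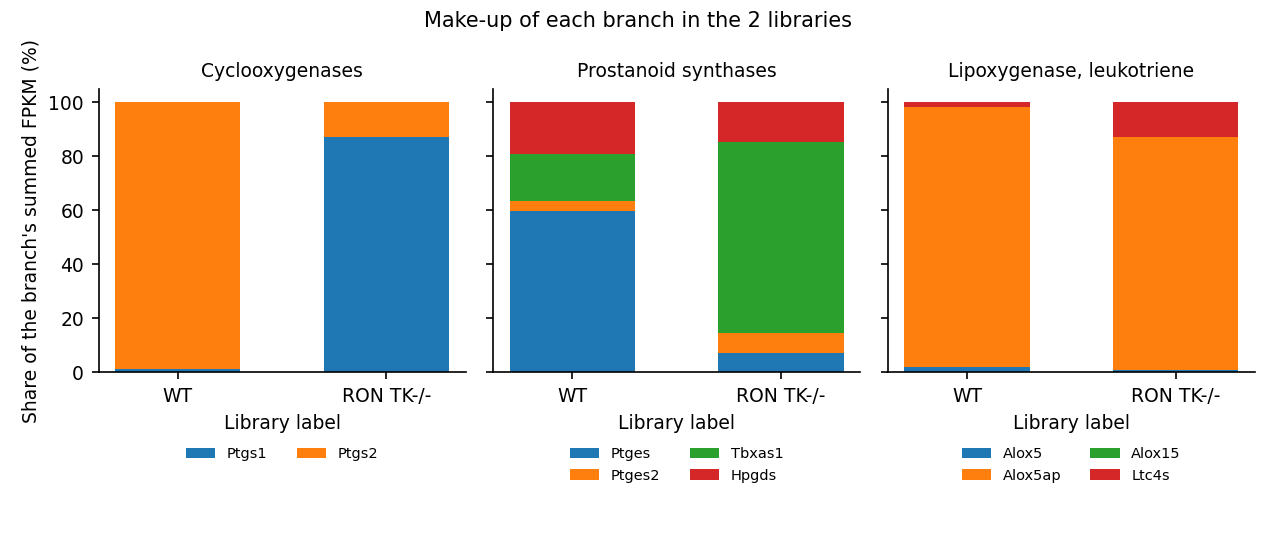
Share of each branch's summed FPKM (%) taken by each gene in the WT-labelled library and the RON TK-/- labelled library, as stacked bars that sum to 100%. The cyclooxygenase bar turns from 98.8% Ptgs2 to 87.3% Ptgs1, the synthase bar from mostly Ptges to mostly Tbxas1, and Alox5ap makes up most of the third branch in both.

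In the lipoxygenase and leukotriene branch, the last enzyme of leukotriene C4 synthesis stood out. Ltc4s (chromosome 11, 50236472 to 50238471), which joins glutathione to leukotriene A4, had 2.81 FPKM in the WT-labelled library and 31.7 in the RON TK-/- labelled library, a log2 ratio of 3.10. The 95% exact Poisson intervals of its levels, which cover counting error only, were 2.29 to 3.42 and 29.9 to 33.5. There were 89 detected genes, Ltc4s included, with a ratio that high. The first enzyme, Alox5 (chromosome 6, 116410071 to 116461178), went the other way at a low level, with 3.37 FPKM in the WT-labelled library and 1.57 in the RON TK-/- labelled library. Its log2 ratio was -0.76 on the scale of FPKM + 1, which understates differences of low genes, and it was 2.14 times higher in the WT-labelled library without the added 1. Ltc4s was 0.835 times as abundant as Alox5 in the WT-labelled library and 20.1 times as abundant in the RON TK-/- labelled library.

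Alox5ap (chromosome 5, 149265058 to 149288047), the membrane protein that presents arachidonic acid to Alox5, was the most abundant gene of the branch in both libraries. It had 180 FPKM in the WT-labelled library and 217 in the RON TK-/- labelled library, a log2 ratio of 0.26, which turned to -0.39 after rescaling to a median ratio of 0. Its RNA was 53.6 times as abundant as that of Alox5 in the first and 138 times in the second. Alox15 (chromosome 11, 70344147 to 70352031), a lipoxygenase of arachidonic and linoleic acid, did not reach 1 FPKM in either library. It had 0.032 FPKM (95% exact Poisson interval 0.0073 to 0.089) in the WT-labelled library and 0.058 (0.021 to 0.127) in the RON TK-/- labelled library, from about 3.30 and 5.97 estimated reads. These intervals overlap, so a difference in Alox15 was not detectable at this depth. Alox15 was thus near 0 also in the RON TK-/- labelled library, where Arg1, Chil3 and Retnla were high.

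Read against all genes, 9 of the 10 enzymes had at least 1 FPKM in a library, and 3 of them (Ltc4s, Ptgs1, Tbxas1) were higher by 2-fold or more and 2 (Ptgs2, Ptges) lower by 2-fold or more in the RON TK-/- labelled library. Among the 11288 genes that reached 1 FPKM in a library, 25.6% were higher by that much and 8.71% lower. The median log2 ratio was 0.26 over the 9 enzymes and 0.57 over all detected genes. Relative to that median, 8.38% of genes were higher by 2-fold or more and 14.4% lower. The enzymes higher were then the same 3, and Hpgds (-1.12) and Alox5 (-1.33) joined Ptgs2 and Ptges as lower. A count of 3 higher and 2 lower among 9 genes is too small to set the group apart from this background, and the values are a description of single genes.

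**Figure D3:**
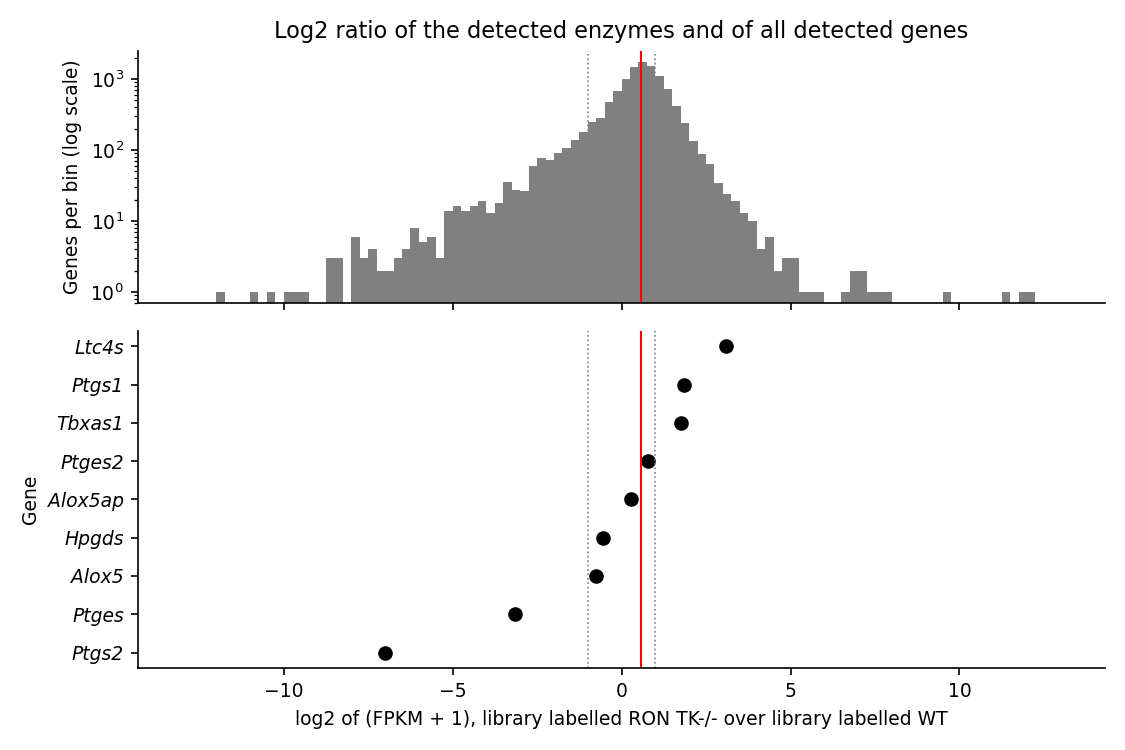
Upper panel, number of genes (log scale) per bin of the log2 ratio for all 11288 detected genes, and lower panel, the log2 ratio of each of the 9 detected enzymes, 1 point each. Dotted lines mark 2-fold and the red line the median of all detected genes (0.57); Ptgs2 at -6.99 and Ptges at -3.15 lie in the lower tail and Ltc4s at 3.10 in the upper tail.

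The other genes of the pathway were taken from lists of 76 genes, all found in the files, of which 45 had at least 1 FPKM in a library. Of these, 16 were higher by 2-fold or more and 5 lower in the RON TK-/- labelled library, against 25.6% and 8.71% of all detected genes. With ratios taken relative to the all-gene median, the counts were 9 and 8 of the 45, against 8.38% and 14.4% of all detected genes. The median log2 ratio was 0.47 against 0.57 for all detected genes, close to it.

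Phospholipases and acyltransferases, which free arachidonic acid and return it to membranes, had 13 of 24 genes detected, 4 higher and 3 lower, where 25.6% of all detected genes were higher and 8.71% lower. Pla2g4a, the cytosolic phospholipase A2 that feeds eicosanoid synthesis, had 33.4 FPKM in the WT-labelled library and 26.2 in the RON TK-/- labelled library, and the lysosomal Pla2g15, the most abundant of the list by its mean, had 43.9 and 69.1. Of the secreted phospholipases 3 were higher in the RON TK-/- labelled library: Pla2g2e had 0.11 and 7.76 FPKM, Pla2g5 0.86 and 10.9, and Pla2g12a 1.62 and 8.23, and the calcium-independent Pla2g6 had 0.99 and 4.07. The lower genes were Pla2g7, which degrades platelet activating factor (76.8 and 29.3 FPKM), Pla2g16 (16.8 and 2.20) and Lpcat2, which makes platelet activating factor (8.75 and 2.63). Of these 7, Pla2g6 was within 2-fold relative to the median of all genes.

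Further enzymes act beside or after those above. Lta4h, which makes leukotriene B4 and thus competes with Ltc4s for leukotriene A4, had 16.5 FPKM in the WT-labelled library and 38.6 in the RON TK-/- labelled library, a log2 ratio of 1.18. It was 5.85 times as abundant as Ltc4s in the first library and 1.22 times in the second. Among other prostanoid synthases Fam213b (11.2 and 25.0) and Cbr1 (13.7 and 30.4) were higher, while Ptgds was listed at 0 in both and the prostacyclin synthase Ptgis had 0 and 0.082 FPKM. Lta4h, Fam213b and Cbr1 were within 2-fold relative to the median of all genes, and Mgst3, Dpep2 and Abcc1 were then lower by more than 2-fold. None of 5 other lipoxygenases, among them Alox12, reached 1 FPKM. The microsomal glutathione transferase Mgst1, the most abundant gene of the leukotriene list, was level at 52.6 and 57.3. Of 9 detected genes of inactivation and transport, Cbr3 (2.39 and 18.3) and Ptgr2 (6.52 and 19.8) were higher and none was lower by 2-fold. Among all detected genes 25.6% were higher and 8.71% lower, so these counts do not set the list apart. Ptgr2 was within 2-fold relative to the median of all genes. Ptgr1, the most abundant of the inactivation and transport list by its mean, had 21.7 and 29.7. Hpgd, which inactivates prostaglandins, was low at 0.71 and 1.37.

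Receptors differed in both directions. The prostaglandin E2 receptor Ptger4 had 19.4 FPKM in the WT-labelled library and 2.80 in the RON TK-/- labelled library, a log2 ratio of -2.43, and Ptger2, which signals through cyclic AMP as Ptger4 does, had 0.91 and 9.39, a log2 ratio of 2.44. Ptger4 was 21.3 times as abundant as Ptger2 in the first library, and Ptger2 3.35 times as abundant as Ptger4 in the second. The prostacyclin receptor Ptgir had 1.29 and 24.9 FPKM, a log2 ratio of 3.50. Ptgdr, Gpr44 (also named Ptgdr2), Ptger3 and the thromboxane receptor Tbxa2r were listed at 0 in both libraries. The cysteinyl leukotriene receptors Cysltr1 (2.82 and 11.8) and Cysltr2 (1.07 and 3.32) and the leukotriene B4 receptor Ltb4r1 (0.81 and 4.72) were higher in the RON TK-/- labelled library, although Cysltr2 was within 2-fold relative to the median of all genes. The chemerin and resolvin receptor Cmklr1 had 0.67 and 4.37, and the formyl peptide and lipoxin receptor Fpr2 had 30.8 and 0.15, a log2 ratio of -4.79.

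**Figure D4:**
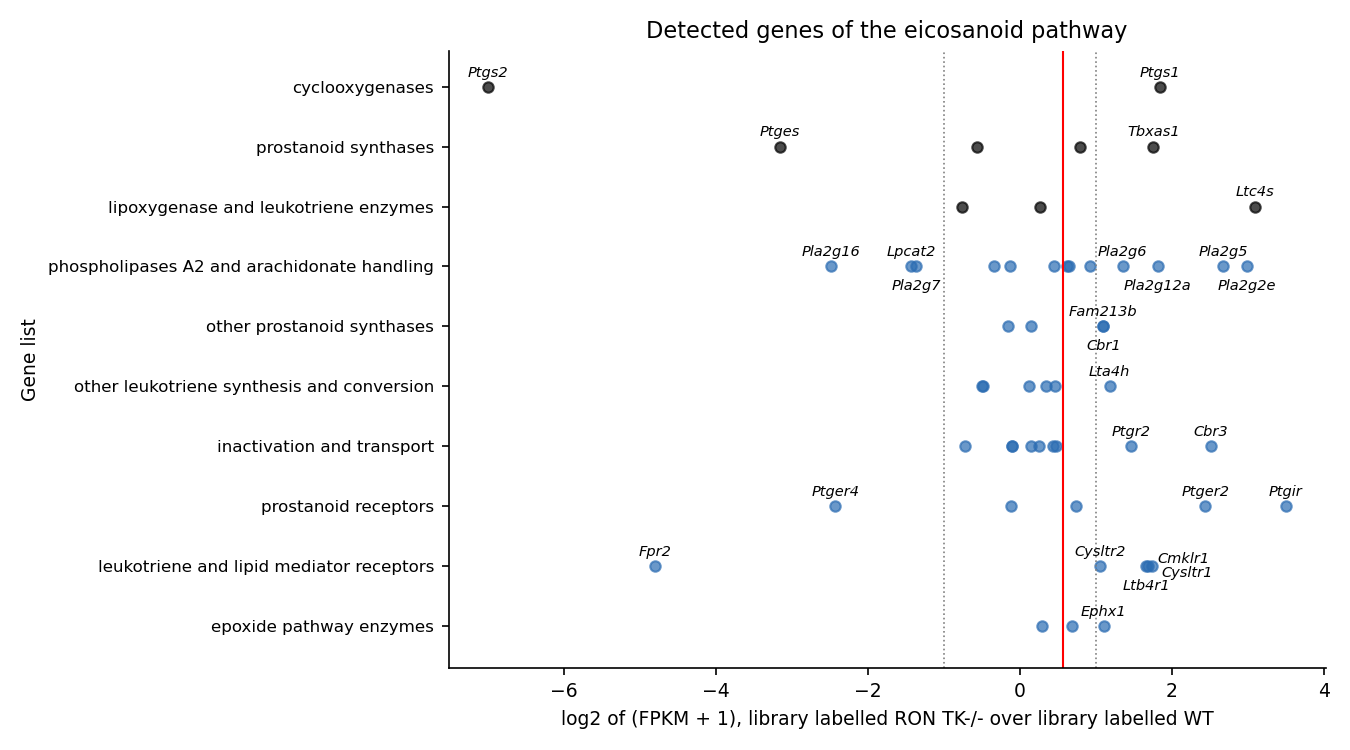
Log2 ratio of (FPKM + 1), RON TK-/- labelled library over WT-labelled library, for each detected gene of the pathway, 1 point per gene and 1 row per list, black for the enzymes chosen and blue for the other lists, with names where the difference is at least 2-fold. Dotted lines mark 2-fold and the red line the median of all detected genes (0.57). The cyclooxygenases, the prostanoid synthases and the prostanoid receptors each hold genes past 2-fold on both sides. So do the lists of phospholipases and of leukotriene and lipid mediator receptors.

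Macrophage identity and other cell types were checked from marker lists. All 7 macrophage markers were detected, but they were not level. Cd68 (746 FPKM in the WT-labelled library, 955 in the RON TK-/- labelled library), Csf1r (184 and 267), Lyz2 (3317 and 4651) and Emr1 (also named Adgre1, 155 and 204) were within 2-fold, Itgam (61.0 and 185) was higher, and Fcgr1 (26.6 and 3.58) and Mertk (32.5 and 9.68) were lower in the RON TK-/- labelled library. Their part in the levels of the enzymes was not tested. Mast cells and eosinophils express several of these enzymes. Of 9 mast cell and basophil markers 6, among them Cpa3 and Fcer1a, were listed at 0 in both libraries and the list summed to 1.37 and 0.79 FPKM. The 5 eosinophil markers summed to 0.79 and 0.71 FPKM, with Prg2 and Epx at 0 in both. Of 8 neutrophil markers found, 4 (S100a9, Mpo, Elane and Ngp) were at 0 in both, and the list summed to 2.74 and 2.03 FPKM. The 5 dendritic cell markers (sums 1.41 and 0.74) and 6 lymphocyte markers (0.042 and 0.049) were all below 1 FPKM. Of 6 platelet markers Pf4 had 45.9 and 28.7 FPKM, a gene macrophages also express, and the others were below 1 FPKM. Stromal and endothelial markers were present: 5 of 6 were detected, all 6 were above 0, and they summed to 262 and 461 FPKM. Col1a1 had 195 and 250 FPKM and Dcn 8.85 and 13.9, both within 2-fold. Higher in the RON TK-/- labelled library by 2-fold or more were Col3a1 (48.5 and 171), Pdgfra (8.93 and 24.3) and Pecam1 (0.53 and 2.53). That is 3 of the 5 detected and none lower, against 25.6% of all detected genes higher and 8.71% lower. Relative to the median of all genes, only Col3a1 was higher by 2-fold. The part of these markers was not tested either. In bulk RNA, fewer cells of a type and less RNA per cell cannot be told apart.

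Each of the 10 enzymes had 1 transcript in the files, so no isoforms were compared. The sources used here do not say whether strand was used in counting. Genes annotated in GENCODE vM21 on the opposite strand shared 268 exonic bases with Ltc4s, 189 with Alox5ap, 148 with Ptgs1 and 144 with Tbxas1. These bases were counted over all GENCODE exons of each gene, so some may lie outside the transcript measured. Reads from shared stretches inside it cannot be assigned to a strand. No exonic bases were shared with a gene on the opposite strand for Ptgs2, Ptges, Ptges2, Hpgds, Alox5 or Alox15. Of the receptors only Ptger4 and Ptger2 were checked, and all genes named here lie on the opposite strand. Ptger4 shared 1015 exonic bases with the pseudogene Gm15937 and 82 with the protein-coding Ttc33. Ttc33 had 5.87 FPKM in the WT-labelled library and 12.2 in the RON TK-/- labelled library. Ptger2 shared 246 exonic bases with Gm17173 and 144 with Gm49364.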

How the data were processed

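FPKM and coverage values of RNA-seq from 2 libraries were used, 1 per group, grouped by the genotype label. Per the labels' protocols, total RNA was extracted with TRIZOL and TruSeq libraries were read as single ends of 50 bases. The authors deposited FPKM per RefSeq transcript and the coverage (mean read depth per base), per the file headers, whose column names are those of Cufflinks. The submitters' processing notes name mm10 and DESeq, without version or role. Aligner and annotation version: not given in the sources used here. These values are not counts, so no count model was used.

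Rows of a symbol were summed. The ratio was log2 of (FPKM + 1), with genes of at least 1 FPKM in a library taken as detected and 2-fold counted as a difference. Estimated reads were coverage times length over 50 bases, and the exact Poisson intervals (95%) treat them as counts. Starts in the files count from 0 and are printed counted from 1. Motifs were searched in RefSeq windows of 250 bases before to 50 after the start, although only the bases before it had been planned. Protein sequences were not used here. The procedure was tested on simulated data (Python 3.11.15, numpy 2.4.6, pandas 2.3.3, scipy 1.17.1). These held counting error only, without variation between cultures or animals, so they do not check calls from 1 library per group. Alternatives were other pseudocounts, filters, scalings, thresholds and estimated reads.

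The members and lists were chosen with earlier results of these data known. Named genes were all members, every detected pathway gene at least 2-fold apart and the most abundant gene of each list, the activation markers, Mst1r, and the 3 genes nearest in level to Ptgs2, Ptgs1, Alox5 and Alox15. Other genes were chosen for naming after their values had been seen. A prostanoid receptor, that with the highest mean, is not reported here.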

Additional observations from a re-analysis of the deposited data

How the results depend on the processing

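No paired analysis was possible because each group has 1 library, and for the same reason no library could be left out. Ptgs2, Ptges and Ltc4s were at least 2-fold apart, or past the altered threshold, under the main setting and all 10 alternatives. For Ptgs1 and Tbxas1 this held under all but the 4-fold threshold. Some alternatives could not alter these calls. With 1 added, a gene below 1 FPKM in both libraries cannot reach 2-fold, so dropping the filter changes no count. Taking the most abundant row leaves enzymes with 1 row each as they were, and a minimum of 5 FPKM leaves every ratio as it was. The log2 ratio ranged from -7.55 to -6.44 for Ptgs2, from -3.71 to -2.63 for Ptges, from 2.23 to 3.45 for Ltc4s, from 1.20 to 1.91 for Ptgs1 and from 1.11 to 1.80 for Tbxas1. Alox5ap changed sign (-0.39) under rescaling to a median ratio of 0, and no other enzyme did. With that rescaling 4 enzymes were lower, 950 of all detected genes were higher and 1564 lower, and 9 other pathway genes were higher and 8 lower. With a pseudocount of 5, 983 of all genes and 9 other pathway genes were higher. With a 4-fold threshold 1 enzyme, Ltc4s, was higher, 419 of all genes were higher and 463 lower, and 5 other pathway genes were higher and 3 lower. With a 1.5-fold threshold 5519 of all genes were higher. The remaining counts were within 1.5 times those reported (47 of 60), and these include counts that could not change. Alox5 passed 2-fold with a pseudocount of 0.1 and with median rescaling, and Hpgds with median rescaling. Depth limits the statement on Alox15, and the lack of replicates limits every statement here.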

Other observations

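Among enzymes of the epoxide route of arachidonic acid, 3 of 7 were detected. Ephx1, the microsomal epoxide hydrolase, had 28.7 FPKM in the WT-labelled library and 62.8 in the RON TK-/- labelled library, a log2 ratio of 1.10, and was within 2-fold once that median (0.57) was taken off. The soluble epoxide hydrolase Ephx2 had 0.28 and 1.06 FPKM and the epoxygenase Cyp2j6 1.76 and 2.36.

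The genes nearest to 4 of the enzymes in level were found by the distance of log2(FPKM + 1) over the 2 libraries, which is a description of only 2 points. Nearest to Ptgs2 were Marcksl1 (911 FPKM in the WT-labelled library and 10.4 in the RON TK-/- labelled library), the costimulatory receptor Cd40 (839 and 10.1) and the guanylate binding protein Gbp2 (931 and 12.2), whose family holds similar copies. Marcksl1 was the only gene within 0.5 log2 units of Ptgs2, among 10605 compared. Ptgs1 had 90 genes within that distance, the nearest being Atic, Secisbp2l and Tceal8, and Alox5 had 117, the nearest being Pvrl4, Itga6 and Cd1d1. Alox15 had 7853 of 19305 genes within it, since these are genes near 0 in both libraries, and the nearest were Exoc3l, Slc43a1 and Lipm.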
